A study of Homo sapiens with 18 samples.

Results

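Of the genes for S100 proteins and annexins, 10 members of 2 calcium-binding protein families were followed in 2 human acute myeloid leukaemia lines treated for 48 h (day 2 in the labels). They were chosen by symbol: S100A4, S100A6, S100A8, S100A9, S100A10 and S100A11, and ANXA1, ANXA2, ANXA4 and ANXA5. MOLM-13, a monocytic line, listed all 10 among 17475 genes. HL-60, a promyelocytic line, listed 9 among 17110 genes, and ANXA2 was not analysed in HL-60. Cells received the solvent dimethyl sulfoxide (DMSO), decitabine (DAC) or NTX-301. There were 6 groups of 3 replicates, making 18 samples. Decitabine is a nucleoside that is built into DNA and covalently captures DNA methyltransferases, and NTX-301 is the code-named compound that the study profiled. HL-60 was treated at a stated 30 nM and MOLM-13 at 15 nM, in wording that does not settle whether the concentration holds for both drugs, so dose and line cannot be told apart. The replicates are described as triplicates with no word on separate cultures, so p-values measure only the spread between these samples.

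S100 proteins are small EF-hand proteins that act as dimers: in most of them, calcium exposes a surface that binds partner proteins. S100A8 and S100A9 form the secreted heterodimer calprotectin, a mark of neutrophils and monocytes that signals through Toll-like receptor 4 and RAGE. Annexins bind acidic phospholipids in membranes when calcium rises, and several of them pair with an S100 protein, as annexin A2 does with S100A10, annexin A1 with S100A11 and annexin A11 with S100A6. Annexin A1 also acts outside the cell as a ligand of formyl peptide receptors. All 6 S100 members lie on chromosome 1, in the order S100A10, S100A11, S100A9, S100A8, S100A6 and S100A4. The annexins are dispersed, with ANXA1 on chromosome 9, ANXA2 on 15, ANXA4 on 2 and ANXA5 on 4.

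DAC acts on DNA methylation, which is laid down at CpG sites, so the CpG content of the members' promoters is shown; methylation itself was not measured here. RefSeq start sites of GRCh38.p14 were used (13 sites for the 10 members, all matched by symbol), whereas the submitters' processing notes name hg19. Over the 250 bases before the start, all 35116 promoters had a median of 11 CpG. ANXA1 had 0 CpG, as had 6.1% of promoters. S100A8 had 2, S100A9 had 4 and S100A4 had 7. The other members had more, from 15 in S100A11, 24 in both S100A6 and S100A10, and 28 in ANXA2 to 31 in ANXA5 and 36 at the upstream start of ANXA4. Promoters with few and with many CpG are shown for 4 members with a single start site that were higher in MOLM-13 with either drug, 5′ to 3′ with CpG in capitals and the last base next to the start.
ANXA1, chr9:73151615-73151864, plus strand: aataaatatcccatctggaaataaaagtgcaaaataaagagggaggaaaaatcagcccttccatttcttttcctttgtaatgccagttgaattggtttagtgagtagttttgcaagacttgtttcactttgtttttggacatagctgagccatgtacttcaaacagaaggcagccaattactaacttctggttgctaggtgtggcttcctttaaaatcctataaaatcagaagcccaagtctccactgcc
S100A9, chr1:153357604-153357853, plus strand: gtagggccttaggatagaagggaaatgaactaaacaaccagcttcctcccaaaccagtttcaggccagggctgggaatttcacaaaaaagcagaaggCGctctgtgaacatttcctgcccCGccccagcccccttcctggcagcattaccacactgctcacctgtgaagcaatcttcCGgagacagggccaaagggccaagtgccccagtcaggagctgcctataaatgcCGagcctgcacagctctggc
S100A6, chr1:153535992-153536241, minus strand: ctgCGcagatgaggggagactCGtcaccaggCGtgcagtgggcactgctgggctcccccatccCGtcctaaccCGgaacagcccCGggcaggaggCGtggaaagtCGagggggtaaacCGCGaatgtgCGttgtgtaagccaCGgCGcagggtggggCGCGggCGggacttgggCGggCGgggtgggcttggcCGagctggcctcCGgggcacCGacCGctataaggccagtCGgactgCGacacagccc
S100A10, chr1:151993860-151994109, minus strand: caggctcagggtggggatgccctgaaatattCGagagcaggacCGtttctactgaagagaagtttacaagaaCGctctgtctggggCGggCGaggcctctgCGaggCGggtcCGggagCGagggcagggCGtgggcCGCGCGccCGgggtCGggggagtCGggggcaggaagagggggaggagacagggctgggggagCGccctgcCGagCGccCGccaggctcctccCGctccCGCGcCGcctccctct

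A TATA box, searched as TATAAA on both strands, was found in 10.7% of all promoters and in 5 of the 10 members. In these 5 its first base lay 29 bases (S100A8, at the second of 3 start sites, and S100A9) or 31 bases (S100A4, ANXA1, ANXA2) before the start. The 4 members with the fewest CpG, S100A8, S100A9, S100A4 and ANXA1, are among them, so the stretches from the motif (capitals) to the start are shown.
S100A8: TATAAAaaggagctgcctctcagccctgc
S100A9: TATAAAtgccgagcctgcacagctctggc
S100A4: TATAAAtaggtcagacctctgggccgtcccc
ANXA1: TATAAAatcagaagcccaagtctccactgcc
ANXA2: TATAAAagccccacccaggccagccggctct
A C/EBP motif, TTNNGCAA on both strands, stood in S100A11 (33 bases before the start) and ANXA1 (143 bases), against 9.1% of all promoters. An AP-1 motif, TGANTCA, stood in ANXA2 (127 bases), against 6.6% of all promoters. These are matches of letters and not measured binding.

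The authors deposited 1 normalized log2 value per gene and sample, and read depth is unknown. The lines list different genes and appear to have been normalized apart, so levels were compared within a line and only drug effects were compared between lines. Low genes hardly vary in these files: the median range over the 9 samples of a line was 0.084 in HL-60 for genes with a mean log2 value of 3 to 6, and 0.23 for those between 8 and 10. In MOLM-13 these ranges were 0.13 and 0.29. Of genes named below, S100A10, S100B, KLF4 and LTC4S lay between 3 and 6 in HL-60. LY96, LTC4S, LRP1, ANXA8 and ANXA8L1 did so in MOLM-13, and the sizes of all these changes are limited. Replicates were close, with a median SD over genes from 0.027 to 0.043 in the 6 groups. The 5 granule markers of promyelocytes (MPO, ELANE, PRTN3, AZU1, CTSG) were listed in both lines. Of the 6 monocyte markers, LYZ, CSF1R, ITGAM and CD68 were listed in both lines and CD14 and FCN1 in neither. In DMSO the summed linear level of the listed monocyte markers was 5187 to 5356 in HL-60 and 92894 to 97998 in MOLM-13. Of the other markers, HL-60 listed 1 of 4 for B cells (CD79A), 0 of 4 each for T cells and erythroid cells and 0 of 5 for fibroblasts or epithelium. MOLM-13 listed 1 of 4 for T cells (CD3D), 0 of 4 for B cells, 2 of 4 for erythroid cells (HBB, HBA1) and 1 of 5 for fibroblasts or epithelium (COL1A1). In these bulk samples, fewer cells of a type and less RNA per cell cannot be told apart.

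Scaled to transcript length, ANXA5 was the highest member in solvent-treated HL-60 and S100A4 the highest in MOLM-13. The scaling takes the deposited values as not already divided by length, which is not settled here. Without it, ANXA5 was also the highest in HL-60 DMSO (13.25). In MOLM-13 DMSO, ANXA2 (12.98) and ANXA5 (12.80) then lay above S100A4 (12.21). On the log2 scale per kb of transcript, the HL-60 DMSO means (± SD, n = 3) ran from ANXA5 at 12.44 ± 0.01, S100A4 at 11.78 ± 0.02 and ANXA1 at 11.44 ± 0.04 to S100A8 at 8.43 ± 0.03 and S100A10 at 4.72 ± 0.02. Between them came S100A11 (10.35), S100A9 (9.44), S100A6 (8.67) and ANXA4 (8.62), of which S100A6 and ANXA4 overlapped between samples. S100A10 was thus 3.71 below its nearest neighbour in HL-60, the widest gap in that order. In MOLM-13 the order was S100A4 (12.99 ± 0.01), ANXA2 (12.45 ± 0.02), ANXA5 (11.98 ± 0.04), S100A6 (11.92 ± 0.05), S100A11 (10.26), S100A10 (9.81), ANXA4 (9.79), ANXA1 (9.57), S100A9 (8.42 ± 0.02) and S100A8 (7.82 ± 0.04). ANXA5 and S100A6 overlapped there, as did S100A10 and ANXA4. The calgranulins S100A8 and S100A9 held the last 2 places in MOLM-13. With the longest annotated transcript in place of the median length, ANXA4 fell below S100A8 in HL-60 and below ANXA1 in MOLM-13.

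**Figure D1:**
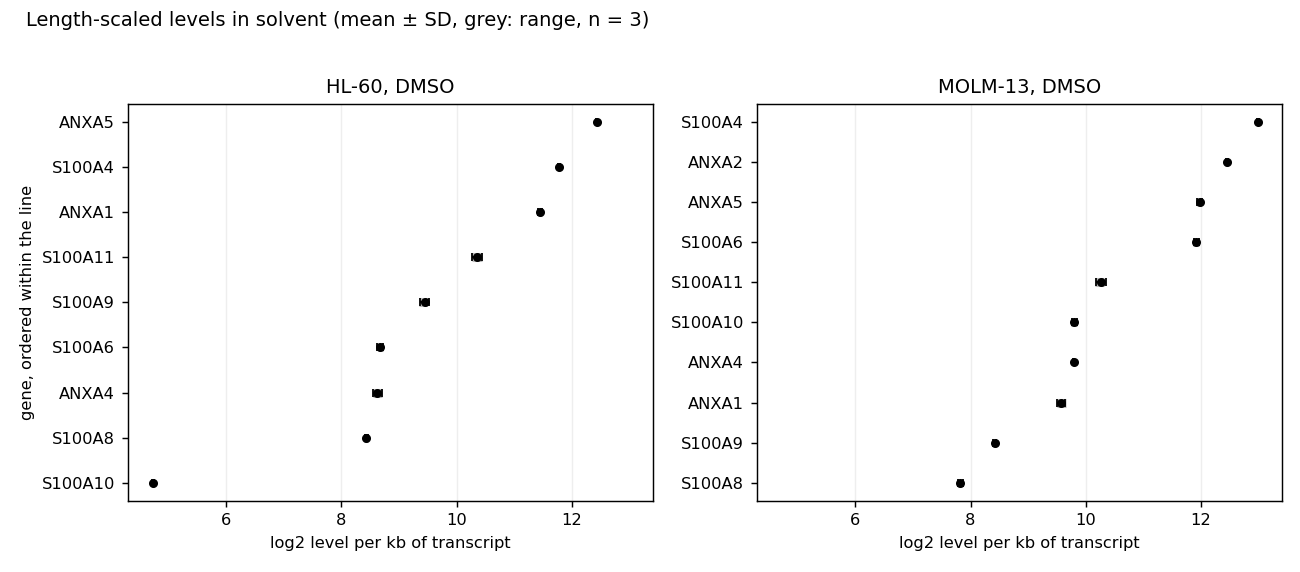
Mean log2 level per kb of transcript in the DMSO samples of HL-60 (left) and MOLM-13 (right), with SD bars and grey ranges over 3 replicates and genes ordered within each line. S100A10 lies far below the other members in HL-60, at 4.72, and in mid order in MOLM-13, at 9.81.

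Against DMSO, S100A6, S100A11 and ANXA1 rose with both drugs in both lines, and most members rose in 3 of the 4 comparisons, the exception being DAC in HL-60. There, DAC raised 4 of the 9 members tested (S100A6, S100A11, ANXA1, ANXA5) and lowered 1 (S100A4), by limma at an adjusted p under 0.05, where 11.6% of all genes tested were higher and 12.6% lower. NTX-301 raised 6 members in HL-60 (S100A4, S100A6, S100A9, S100A10, S100A11, ANXA1) and lowered 1 (ANXA4), where 18.3% of genes were higher and 19.2% lower. DAC in MOLM-13 raised 7 of 10 (S100A6, S100A8, S100A9, S100A10, S100A11, ANXA1, ANXA4) and lowered 0, where 15.4% of genes were higher and 21.2% lower. NTX-301 in MOLM-13 raised 8 of 10 (the same 7 and S100A4) and lowered 1 (ANXA2), where 20.3% of genes were higher and 24.8% lower. The median log2 difference of the members in HL-60 was 0.075 for DAC and 0.23 with NTX-301, beside 0.00064 and 0.00082 over all genes tested. In MOLM-13 it was 0.24 for DAC and 0.28 for NTX-301, beside 0.0013 and 0.0034. The 2 comparisons of a line share their DMSO samples.

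**Figure D2:**
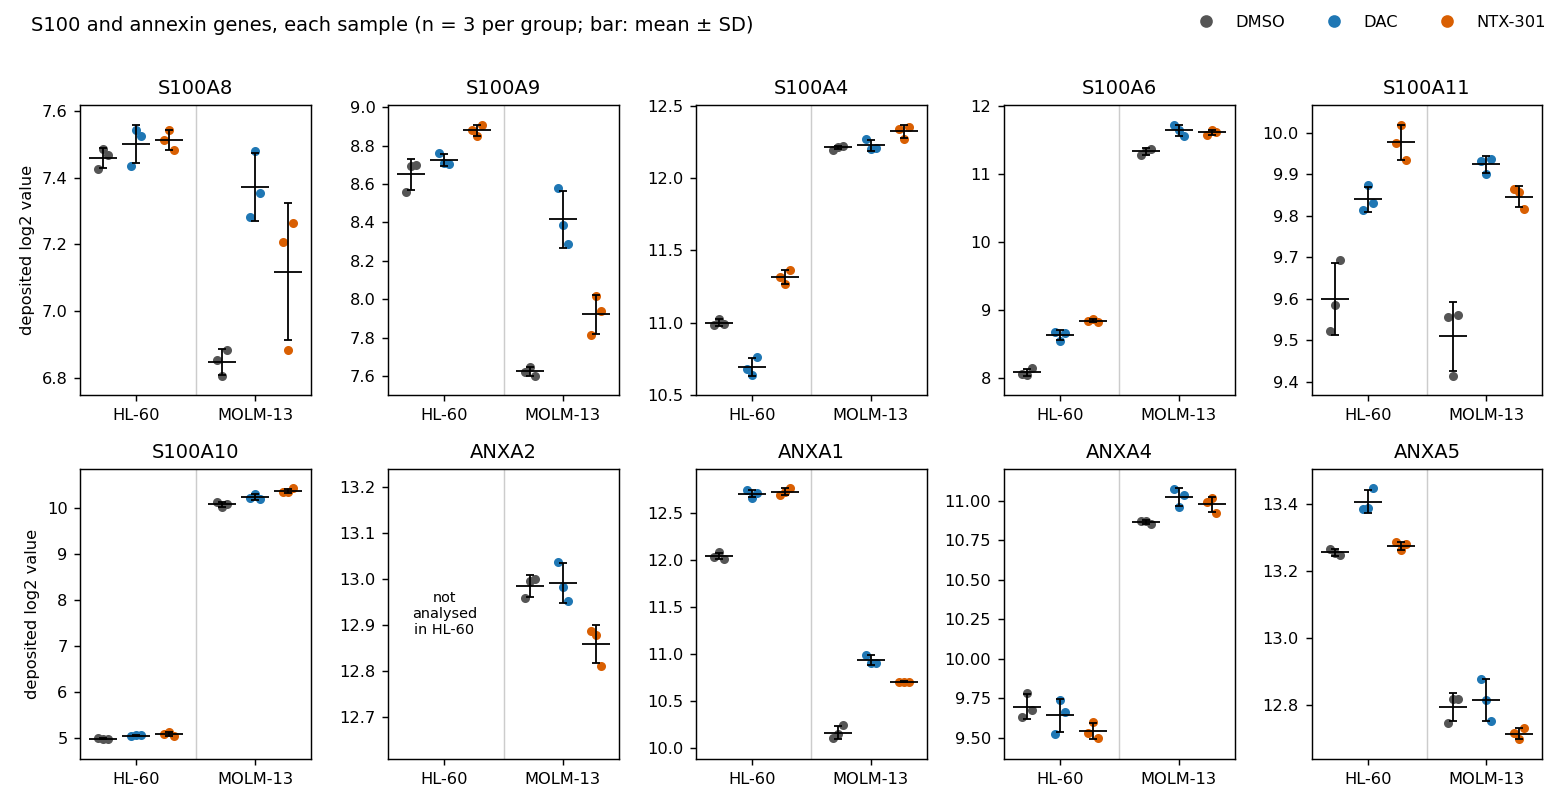
Deposited log2 value of each S100 and annexin gene in every sample, by line and treatment, with the mean and SD of 3 replicates as bars and an axis of its own for each gene. S100A9 in MOLM-13 lies at 7.60 to 7.65 in DMSO, 8.29 to 8.58 in DAC and 7.81 to 8.02 in NTX-301, while S100A8 in HL-60 stays between 7.43 and 7.54 in all 3 groups.

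The calgranulins rose in MOLM-13, more with DAC than with NTX-301 in the case of S100A9, and S100A8 did not pass the test in HL-60. S100A9 values in MOLM-13 were 7.62, 7.65 and 7.60 in DMSO, 8.58, 8.39 and 8.29 in DAC, and 7.81, 8.02 and 7.94 in NTX-301. The 3 groups did not overlap, with DAC highest and DMSO lowest. The log2 difference from DMSO was 0.79 ± 0.08 (SE of the limma fit, n = 3 per group; 1.73-fold; adjusted p = 1.64e-05) with DAC and 0.30 ± 0.08 (1.23-fold; adjusted p = 0.0074) with NTX-301. NTX-301 lay 0.49 below DAC on the log2 scale (adjusted p = 0.00381). Under quantile normalization the NTX-301 difference was 0.19 and no longer passed. S100A8, the partner subunit, read 6.85, 6.81 and 6.88 in DMSO, 7.28, 7.48 and 7.35 in DAC, and 7.21, 6.88 and 7.26 in NTX-301. Every DAC sample lay above every DMSO sample, while replicate 2 of NTX-301 lay within the DMSO range. DAC raised S100A8 by 0.52 ± 0.09 (1.44-fold; adjusted p = 0.000795), and NTX-301 by 0.27 ± 0.09 (1.21-fold; adjusted p = 0.028). For NTX-301 the call was lost without DMSO replicate 1 (0.27), 2 (0.25) or 3 (0.29), without NTX-301 replicate 1 (0.23) or 3 (0.20), under quantile normalization (0.18) and without the variance trend (0.27). NTX-301 minus DAC was -0.25 for S100A8 (95% interval -0.45 to -0.06; adjusted p = 0.113), although the 2 groups did not overlap.

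HL-60 started with S100A9 at 8.56, 8.69 and 8.70 in DMSO, with 8.76, 8.71 and 8.71 in DAC and 8.88, 8.85 and 8.91 in NTX-301. The NTX-301 samples were highest and clear of both other groups. NTX-301 raised S100A9 by 0.23 ± 0.04 (1.17-fold; adjusted p = 0.000677), whereas DAC gave 0.08 (95% interval -0.02 to 0.17; adjusted p = 0.229). NTX-301 exceeded DAC by 0.15 (adjusted p = 0.0136), a call lost without NTX-301 replicate 3 (0.14) and under quantile normalization (0.12). S100A8 in HL-60 read 7.43, 7.49 and 7.47 in DMSO, 7.44, 7.54 and 7.53 in DAC, and 7.51, 7.54 and 7.48 in NTX-301, with all groups overlapping. The differences from DMSO were 0.04 (95% interval -0.04 to 0.13) for DAC and 0.05 (95% interval -0.03 to 0.14) for NTX-301, and quantile normalization turned them to -0.01 and -0.02. The drugs differed by 0.01 (95% interval -0.07 to 0.10). S100A8 overlaps S100A7A in the RefSeq annotation, a gene not analysed here.

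Monocyte markers moved with the calgranulins in MOLM-13. All 4 listed markers rose with DAC (LYZ by 0.78, CD68 by 0.68, ITGAM by 0.64 and CSF1R by 0.51) and all 4 with NTX-301 (ITGAM by 0.71, CD68 by 0.46, CSF1R by 0.39 and LYZ by 0.12). Over all genes, 15.4% were higher there with DAC and 20.3% with NTX-301. The summed linear level of the 4 markers was 159424 to 172191 in DAC and 103445 to 108888 in NTX-301, above the DMSO range in both. In HL-60 DAC raised LYZ by 0.25 and CD68 by 0.20, NTX-301 raised ITGAM by 0.43, CSF1R by 0.42 and CD68 by 0.19 and lowered LYZ by 0.07, and the sums were 6149 to 6431 and 5013 to 5214. In that line 11.6% of all genes were higher with DAC, and 18.3% were higher and 19.2% lower with NTX-301. The fall of LYZ lost its call in 6 of 9 fits that left out a sample (range -0.09 to -0.05), and its rise with NTX-301 in MOLM-13 in 2 of 9 (0.10 to 0.14). LYZ makes up most of each sum, with a linear level in HL-60 DMSO of 4968 against 96.8 for CSF1R, 111.1 for CD68 and 121.0 for ITGAM, so the sum follows LYZ, while the 3 other markers rose with NTX-301. Their part in the S100A8 and S100A9 results was not tested.

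S100A4, the metastasis-associated S100 that binds non-muscle myosin, was the member whose direction differed between the drugs in HL-60. Its HL-60 values were 10.98, 11.02 and 10.99 in DMSO, 10.68, 10.64 and 10.76 in DAC, and 11.32, 11.26 and 11.36 in NTX-301. DMSO stood in the middle, with DAC below it and NTX-301 above it and no overlap. DAC lowered S100A4 by 0.31 on the log2 scale (0.81-fold; adjusted p = 2.51e-05) and NTX-301 raised it by 0.32 ± 0.03 (1.25-fold; adjusted p = 6.59e-06). NTX-301 exceeded DAC by 0.62 ± 0.03 (1.54-fold; adjusted p = 2.08e-08). MOLM-13 gave 12.20, 12.22 and 12.22 in DMSO, 12.27, 12.20 and 12.21 in DAC, and 12.34, 12.27 and 12.36 in NTX-301. Here DAC overlapped DMSO, with a difference of 0.01 (95% interval -0.05 to 0.08), and NTX-301 lay 0.11 ± 0.03 above DMSO (adjusted p = 0.00908). Centring each sample on its median took the latter to 0.08, which did not pass. NTX-301 minus DAC was 0.10 in MOLM-13 (95% interval 0.03 to 0.16; adjusted p = 0.0696), and 0.11 with a call under quantile normalization. S100A4 overlaps S100A5 in the annotation, a gene not analysed here.

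S100A6, or calcyclin, rose with both drugs in both lines, most with NTX-301 in HL-60. In HL-60 it read 8.05, 8.04 and 8.14 in DMSO, 8.68, 8.54 and 8.65 in DAC, and 8.84, 8.86 and 8.82 in NTX-301. The groups stood in that order with no overlap. The differences from DMSO were 0.54 ± 0.04 (1.46-fold; adjusted p = 1.04e-06) and 0.76 ± 0.04 (1.70-fold; adjusted p = 1.49e-08), and NTX-301 exceeded DAC by 0.22 (adjusted p = 0.00177). MOLM-13 gave 11.28, 11.34 and 11.38 in DMSO, 11.73, 11.64 and 11.57 in DAC, and 11.57, 11.65 and 11.63 in NTX-301. Both drug groups lay above DMSO and overlapped each other. S100A6 rose there by 0.31 ± 0.04 with DAC (adjusted p = 0.000139) and by 0.28 ± 0.04 with NTX-301 (adjusted p = 0.000188), and the drugs differed by -0.03 (95% interval -0.12 to 0.06).

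S100A11, the partner of annexin A1, rose in all 4 comparisons. HL-60 values were 9.52, 9.59 and 9.69 in DMSO, 9.81, 9.87 and 9.83 in DAC, and 9.98, 10.02 and 9.94 in NTX-301. No group overlapped another, and NTX-301 was highest. The differences from DMSO were 0.24 ± 0.04 (1.18-fold; adjusted p = 0.00103) with DAC and 0.38 ± 0.04 (1.30-fold; adjusted p = 8.09e-06) with NTX-301. Against DAC, NTX-301 gave 0.14 (adjusted p = 0.0241), a call lost without DAC replicate 1 (0.12) or 3 (0.13), without NTX-301 replicate 1 (0.14) or 2 (0.12), and under quantile normalization (0.12). In MOLM-13 S100A11 read 9.55, 9.41 and 9.56 in DMSO, 9.93, 9.90 and 9.94 in DAC, and 9.86, 9.86 and 9.82 in NTX-301. DMSO was lowest and DAC highest, again with no overlap. DAC raised it by 0.41 ± 0.05 (1.33-fold; adjusted p = 4.17e-05) and NTX-301 by 0.34 ± 0.05 (1.26-fold; adjusted p = 0.00011), and NTX-301 minus DAC was -0.08 (95% interval -0.18 to 0.02; adjusted p = 0.341). S100A11 has 10 annotated pseudogenes, none of them analysed here, and reads from near-identical copies could add to its value.

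S100A10 and annexin A2 form the tetramer that binds plasminogen activators and plasminogen at the cell surface, and in MOLM-13 their RNAs moved apart with NTX-301. S100A10 in MOLM-13 read 10.11, 10.02 and 10.08 in DMSO, 10.22, 10.30 and 10.18 in DAC, and 10.33, 10.34 and 10.42 in NTX-301, in ascending groups with no overlap. It rose by 0.29 ± 0.04 with NTX-301 (1.22-fold; adjusted p = 0.000212) and by 0.16 ± 0.04 with DAC (1.12-fold; adjusted p = 0.0119). The DAC call was lost without DMSO replicate 2 (0.14) or DAC replicate 2 (0.13). NTX-301 minus DAC was 0.13 (95% interval 0.03 to 0.22; adjusted p = 0.0967). ANXA2 read 12.9579, 12.994 and 13.0004 in DMSO, 13.04, 12.98 and 12.95 in DAC, and 12.89, 12.88 and 12.81 in NTX-301. The NTX-301 samples were the lowest, while DAC overlapped DMSO. NTX-301 lowered ANXA2 by 0.13 against DMSO (0.92-fold; adjusted p = 0.00434) and by 0.13 against DAC (adjusted p = 0.0214), and DAC gave 0.01 (95% interval -0.06 to 0.07). Quantile normalization took the fall against DMSO to -0.02 with no call and the DAC difference to 0.09 with a call. The fall against DAC lost its call without DAC replicate 1 (-0.11) or NTX-301 replicates 2 (-0.14) or 3 (-0.11). ANXA2 is uncertain in 1 more way: its processed copy ANXA2P2 was also listed in MOLM-13, and reads could be split between them. ANXA2P2 read 3.72 to 3.79 over the samples of that line, beside 12.81 to 13.04 for ANXA2. Its part in the ANXA2 result was not tested.

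In HL-60 S100A10 was near the low end of the scale, where changes are compressed. It read 5.00, 4.97 and 4.99 in DMSO, 5.04, 5.06 and 5.06 in DAC, and 5.08, 5.13 and 5.04 in NTX-301. Both drug groups lay just above DMSO and overlapped each other. NTX-301 gave a rise of 0.10 ± 0.02 (adjusted p = 0.00523). DAC gave 0.07 (95% interval 0.02 to 0.12; adjusted p = 0.0547), which passed without NTX-301 replicate 2 or 3 (0.07 each) and in the fit of only DAC and DMSO (0.07), with a minimum mean linear value of 10 (0.07) and with a pseudocount of 10 (0.05). The drugs differed by 0.03 (95% interval -0.02 to 0.08).

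ANXA1, the glucocorticoid-induced annexin that inhibits phospholipase A2, rose with both drugs in both lines, by 1.45-fold to 1.71-fold. Its HL-60 values were 12.03, 12.08 and 12.01 in DMSO, 12.74, 12.66 and 12.71 in DAC, and 12.68, 12.72 and 12.76 in NTX-301. The drug groups overlapped each other and stood clear of DMSO. The rises were 0.66 ± 0.03 with DAC (1.58-fold; adjusted p = 1.45e-09) and 0.68 ± 0.03 with NTX-301 (1.61-fold; adjusted p = 4.34e-10), and the drugs differed by 0.02 (95% interval -0.04 to 0.08). MOLM-13 gave 10.10, 10.15 and 10.24 in DMSO, 10.99, 10.91 and 10.91 in DAC, and 10.71, 10.71 and 10.70 in NTX-301. DAC was highest, NTX-301 intermediate and DMSO lowest, with no overlap. The rises were 0.77 ± 0.04 (1.71-fold; adjusted p = 2.33e-07) and 0.54 ± 0.04 (1.45-fold; adjusted p = 2.12e-06), and NTX-301 lay 0.23 below DAC on the log2 scale (adjusted p = 0.00766).

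ANXA4, an annexin best known from secretory epithelia, fell with NTX-301 in HL-60 and rose with both drugs in MOLM-13, by at most 0.16. HL-60 values were 9.63, 9.78 and 9.68 in DMSO, 9.53, 9.74 and 9.66 in DAC, and 9.53, 9.60 and 9.50 in NTX-301. DAC overlapped both other groups, and NTX-301 lay below DMSO. NTX-301 minus DMSO was -0.15 (0.90-fold; adjusted p = 0.0337), a call lost without DMSO replicate 2 (-0.11) or 3 (-0.16), without NTX-301 replicate 1 (-0.15) or 3 (-0.13), without the variance trend (-0.15) and with a pseudocount of 10 (-0.15). DAC gave -0.05 (95% interval -0.17 to 0.06), and NTX-301 minus DAC was -0.10 (95% interval -0.21 to 0.01), which passed without DAC replicate 1 (-0.16) and after centring on the median (-0.13). In MOLM-13 ANXA4 read 10.87, 10.87 and 10.85 in DMSO, 11.07, 10.96 and 11.03 in DAC, and 10.99, 11.02 and 10.92 in NTX-301. Both drug groups exceeded DMSO and overlapped each other. DAC raised it by 0.16 ± 0.04 (adjusted p = 0.00551). NTX-301 raised it by 0.11 ± 0.04 (adjusted p = 0.025), a call lost without DMSO replicate 2 (0.12) or 3 (0.11), without NTX-301 replicate 1 (0.10) or 2 (0.09), and after centring on the median (0.08). The drugs differed by -0.04 (95% interval -0.12 to 0.04).

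ANXA5, the phosphatidylserine-binding annexin used to stain apoptotic cells, rose with DAC in HL-60 and with no other treatment at the threshold. HL-60 values were 13.27, 13.25 and 13.25 in DMSO, 13.38, 13.39 and 13.45 in DAC, and 13.28, 13.26 and 13.28 in NTX-301. DAC stood above both other groups, which overlapped. The DAC rise was 0.15 ± 0.02 (1.11-fold; adjusted p = 0.000169), NTX-301 gave 0.02 (95% interval -0.03 to 0.07), or 0.05 with a call under quantile normalization, and NTX-301 lay 0.13 below DAC (adjusted p = 0.00035). MOLM-13 gave 12.75, 12.82 and 12.82 in DMSO, 12.88, 12.82 and 12.75 in DAC, and 12.72, 12.70 and 12.73 in NTX-301. DAC overlapped DMSO, and NTX-301 lay just below both. DAC minus DMSO was 0.02 (95% interval -0.05 to 0.09), and 0.10 with a call under quantile normalization. NTX-301 minus DMSO was -0.08 (95% interval -0.15 to -0.01; adjusted p = 0.0676), which passed without DMSO replicate 1 (-0.10), without DAC replicate 1 or 3 (-0.08 each), in the fit of only the groups compared (-0.08) and after centring on the median (-0.11). NTX-301 minus DAC was -0.10 (95% interval -0.17 to -0.03; adjusted p = 0.0924), which passed without DAC replicate 3 (-0.13).

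**Figure D3:**
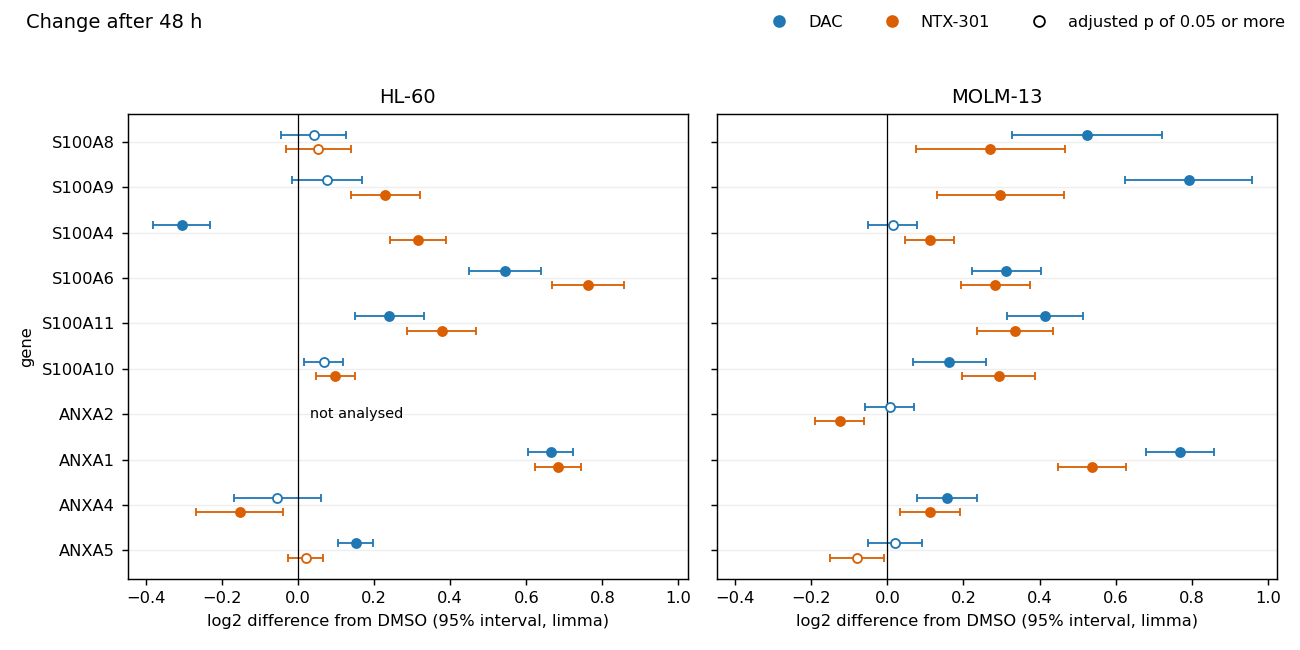
Log2 difference from DMSO after 48 h with DAC or NTX-301, with 95% intervals from limma, in HL-60 (left) and MOLM-13 (right). S100A4 in HL-60 has intervals on opposite sides of 0 for the 2 drugs, and ANXA1 lies between 0.54 and 0.77 in all 4 comparisons.

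Set directly against each other, the drugs differed for 5 of 9 members in HL-60 and for 3 of 10 in MOLM-13. In HL-60, NTX-301 was higher for 4 (S100A4, S100A6, S100A9, S100A11) and lower for 1 (ANXA5), where 15.4% of genes were higher and 15.0% lower. In MOLM-13, NTX-301 was higher for 0 members and lower for 3 (S100A9, ANXA1, ANXA2), where 3.01% of genes were higher and 4.41% lower. This makes 19 tests of a member, with p-values adjusted over all genes of the line. S100A9 was called in both lines with opposite signs, 0.15 in HL-60 and -0.49 in MOLM-13. Each drug was given at 1 stated concentration, so no dose response can be read.

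The effect of a drug differed between the lines for most members, tested by subtracting the HL-60 effect from the MOLM-13 effect in 1 fit of all 18 samples. For DAC, 5 of 9 members had a higher effect in MOLM-13 and 2 a lower one, where 12.1% of genes were higher and 17.9% lower. S100A9 differed most, by 0.72 ± 0.09 (adjusted p = 6.91e-06), followed by S100A8 at 0.48 ± 0.10 (adjusted p = 0.00134) and S100A4 at 0.32 ± 0.05 (adjusted p = 3.72e-05). ANXA4 differed by 0.21 and S100A11 by 0.17, while S100A6 (-0.23) and ANXA5 (-0.13) had the smaller effect in MOLM-13. The S100A11 difference is near the threshold (adjusted p = 0.0443) and was lost in 10 of 18 fits that left out a sample (range 0.13 to 0.21), under quantile normalization (0.13), after centring (0.14), with a pseudocount of 10 (0.17) and with the replicate block (0.17). ANXA4 lost its call without HL-60 DMSO replicate 2 (0.17), HL-60 DAC replicate 1 (0.15), MOLM-13 DMSO replicate 3 (0.20), MOLM-13 DAC replicate 1 (0.19) or 3 (0.20), and after centring (0.17). ANXA5 lost it without DAC replicate 3 of HL-60 (-0.11) or of MOLM-13 (-0.10) and under quantile normalization (-0.07), which also ended the S100A6 call (-0.16). ANXA1 gave 0.11 (95% interval 0.0042 to 0.21; adjusted p = 0.108), which passed without MOLM-13 DMSO replicate 3 (0.15), and S100A10 gave 0.10 (95% interval -0.03 to 0.22).

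For NTX-301, 2 members had a higher effect in MOLM-13 and 4 a lower one, where 17.6% of genes were higher and 22.4% lower. S100A6 differed most, by -0.48 ± 0.06 (adjusted p = 7.48e-06), from a rise of 0.76 in HL-60 and 0.28 in MOLM-13. S100A4 differed by -0.20 ± 0.05 (adjusted p = 0.00168) and ANXA1 by -0.14 ± 0.05 (adjusted p = 0.024). ANXA4 (0.27; adjusted p = 0.00487) and S100A10 (0.20; adjusted p = 0.0141) had the higher effect in MOLM-13. For S100A10 this sets a rise of 0.10 at a log2 level near 5 in HL-60, where values are compressed, against one of 0.29 near 10 in MOLM-13. The ANXA1 call was lost without HL-60 DMSO replicate 3 (-0.13), HL-60 NTX-301 replicate 3 (-0.13) or MOLM-13 DMSO replicate 3 (-0.10). ANXA5 (-0.10; adjusted p = 0.0496) lost its call in 14 of 18 fits that left out a sample, within a range of -0.12 to -0.09, and with the replicate block (-0.10), under quantile normalization (-0.04), after centring (-0.10), without the variance trend and with a pseudocount of 10 (-0.10 each). S100A8 gave 0.22 (95% interval 0.0041 to 0.43; adjusted p = 0.0985), which passed without MOLM-13 NTX-301 replicate 2 (0.34). S100A9 gave 0.07 (95% interval -0.12 to 0.25) and S100A11 -0.04 (95% interval -0.17 to 0.09).

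**Figure D4:**
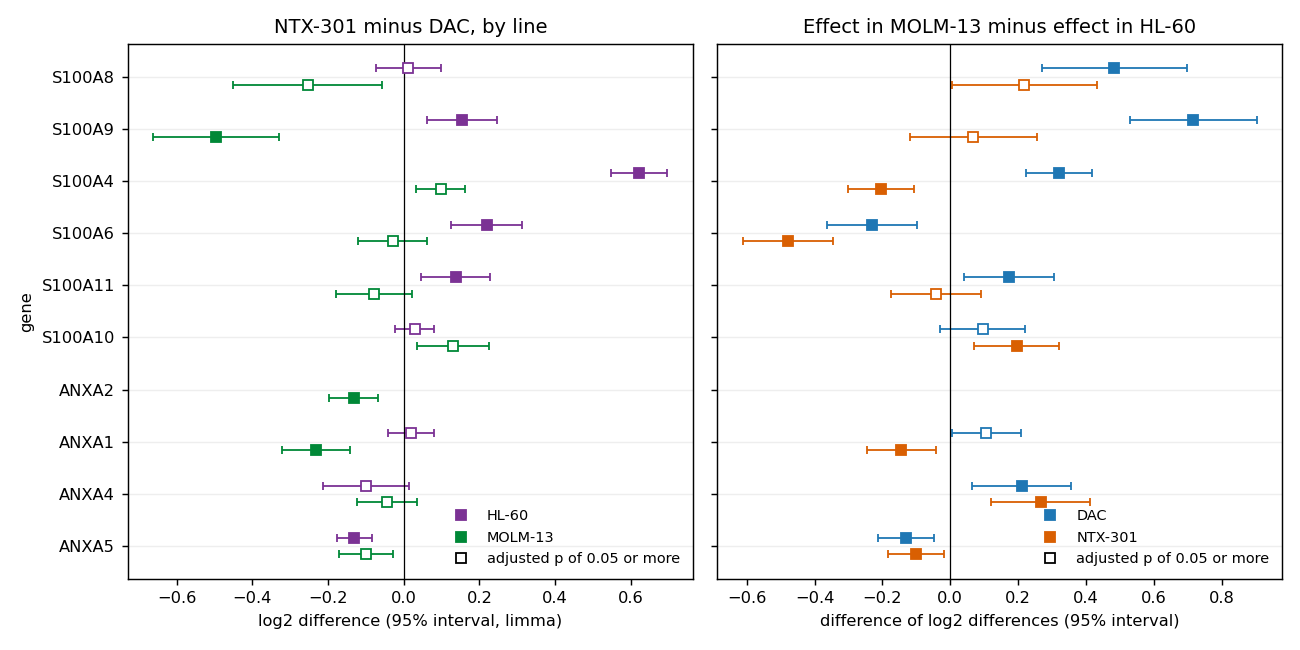
Log2 difference between NTX-301 and DAC in each line (left) and difference of the drug effects between the lines (right), each with 95% intervals from limma. S100A9 is the member at 0.15 in HL-60 and -0.49 in MOLM-13 on the left, and on the right at 0.72 with DAC and 0.07 with NTX-301.

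In the wider families, HL-60 listed 10 S100 genes and 8 annexins, and MOLM-13 listed 7 and 9. The members are among them, and the lists were drawn up with earlier results of these data known. NTX-301 in HL-60 raised 7 of 10 S100 genes and lowered 0, adding S100P (0.24) and S100B (0.08) to the members, where 18.3% of all genes were higher and 19.2% lower. The S100B call was lost in 4 of 9 fits that left out a sample (range 0.06 to 0.10). DAC raised 2 and lowered 1 of those 10, where 11.6% of all genes were higher and 12.6% lower. In MOLM-13, DAC raised 5 of 7 and NTX-301 6 of 7, all of them members, where 15.4% and 20.3% of all genes were higher, and S100A13 was the gene outside the members (0.03 and 0.04, not called). Annexins moved in both directions. In HL-60, DAC raised 4 of 8, with ANXA3 at 0.26 and ANXA9 at 0.10 besides the members, and lowered ANXA11 by 0.11. NTX-301 raised 3 of 8 there, with ANXA9 at 0.28 and ANXA6 at 0.09, and lowered ANXA7 by 0.18 as well as ANXA4. In MOLM-13, DAC raised 2 of 9, ANXA1 and ANXA4. NTX-301 raised 5 of 9, with ANXA8 at 0.21, ANXA8L1 at 0.11 and ANXA11 at 0.09, and lowered ANXA7 by 0.15 as well as ANXA2. Of all genes, 24.8% were lower with NTX-301 in MOLM-13. ANXA8 and ANXA8L1 are near-identical copies whose reads could be split. Among these annexin calls, fits that left out a sample lost ANXA9 with DAC in HL-60 in 5 of 9 (0.09 to 0.12) and ANXA11 with NTX-301 in MOLM-13 in 2 of 9 (0.08 to 0.10).

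Among receptors for these proteins, each drug changed 1 or 2 of the 5 listed in a line, beside an all-gene share, higher and lower, of 11.6% and 12.6% (DAC) or 18.3% and 19.2% (NTX-301) in HL-60 and of 15.4% and 21.2% (DAC) or 20.3% and 24.8% (NTX-301) in MOLM-13. Of the 5 listed in HL-60, DAC raised TLR4, the calprotectin receptor, by 0.25, and NTX-301 lowered it by 0.18. NTX-301 raised FPR2, a receptor of annexin A1, by 0.39. Of the 5 listed in MOLM-13, DAC raised LY96, the co-receptor of TLR4, by 0.16. NTX-301 raised AGER, which encodes RAGE, by 0.26 and lowered CD36 by 0.15. In HL-60 the median over this list was 0.05 with DAC and 0.01 with NTX-301, and in MOLM-13 it was 0.10 and 0.07. Leaving out a sample ended the LY96 call in 4 of 9 fits (0.13 to 0.18) and the CD36 call in 1 of 9 (range -0.19 to -0.12).

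The plasminogen system, which S100A10 serves, had 4 of 5 listed genes lower with NTX-301 than with DAC in HL-60 and 5 of 6 in MOLM-13, where 15.0% and 4.41% of all genes were lower. Of these, ENO1 in HL-60 lost its call in 4 of 9 fits that left out a sample, and in MOLM-13 LRP1 did so in 6 and SERPINB2 in 5. Against DMSO, DAC in HL-60 raised SERPINB2, a plasminogen activator inhibitor, by 0.45 and PLAUR, the urokinase receptor, by 0.25, and lowered ENO1 by 0.08. NTX-301 there lowered PLAU, which encodes urokinase, by 0.26 and ENO1, a plasminogen receptor as well as enolase, by 0.15, and raised SERPINB2 by 0.17. In MOLM-13, DAC raised 3 of 6, with LRP1 at 0.28, SERPINB2 at 0.19 and PLAU at 0.18, and lowered PLAUR by 0.20 and ENO1 by 0.10. NTX-301 raised 0 of the 6 and lowered 4, PLAUR by 0.33, ENO1 by 0.27, the plasminogen receptor PLGRKT by 0.17 and PLAU by 0.08. Against DMSO in MOLM-13, 15.4% of all genes were higher and 21.2% lower with DAC, and 20.3% and 24.8% with NTX-301. The shares in HL-60 were 11.6% and 12.6% with DAC, and 18.3% and 19.2% with NTX-301. Leaving out a sample ended the ENO1 call with DAC in 4 of 9 fits in HL-60 (-0.10 to -0.06) and 3 of 9 in MOLM-13 (-0.13 to -0.08). In MOLM-13 it ended that of SERPINB2 with DAC in 2 of 9 (0.16 to 0.23), and with NTX-301 those of PLGRKT (-0.22 to -0.12) and PLAU (-0.10 to -0.06) in 3 of 9 each.

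Eicosanoid synthesis lies downstream of the phospholipases that annexin A1 inhibits. With DAC in HL-60, 1 of 9 listed genes rose, PTGS2 (cyclooxygenase-2) by 0.78, and 2 fell, PLA2G6 by 0.17 and PTGS1 by 0.09, where 11.6% of all genes were higher and 12.6% lower. With NTX-301, 6 of 9 rose, where 18.3% of all genes did, led by ALOX5 (5-lipoxygenase) at 0.67 and its activating protein ALOX5AP at 0.51, and PLA2G4A fell by 0.10. In MOLM-13, DAC raised 5 of 9 (ALOX5 by 0.68, PTGS1 by 0.34, ALOX5AP by 0.32, PTGS2 by 0.21, LTC4S by 0.12) and lowered PLA2G4A, the cytosolic phospholipase A2, by 0.13. NTX-301 raised 4 of 9 there (ALOX5 by 0.72, PTGS1 by 0.41, ALOX5AP by 0.29, TBXAS1 by 0.11). The all-gene shares higher in MOLM-13 were 15.4% with DAC and 20.3% with NTX-301. For the falls of PLA2G4A, the shares lower were 19.2% with NTX-301 in HL-60 and 21.2% with DAC in MOLM-13. In HL-60, leaving out a sample ended the DAC calls of PLA2G6 (-0.24 to -0.13) and PTGS1 (-0.11 to -0.07) in 4 of 9 fits each. It also ended the NTX-301 calls of LTA4H in 5 of 9 (0.06 to 0.14), PLA2G4A in 4 (-0.12 to -0.07) and LTC4S in 2 (0.09 to 0.16). In MOLM-13 it ended those of PTGS2 (0.14 to 0.25) and LTC4S (0.11 to 0.14) with DAC in 3 of 9 each, PLA2G4A with DAC in 1 (-0.16 to -0.10) and TBXAS1 with NTX-301 in 4 (0.07 to 0.15).

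Membrane repair, in which annexins patch torn membranes, held the largest change of these lists: AHNAK, the giant scaffold that binds S100A10 and annexin A2, rose by 1.36 with NTX-301 in HL-60. With DAC it rose by 0.44 in that line, and in MOLM-13 by 0.12 with DAC and 0.15 with NTX-301. Of the 8 repair genes in HL-60, each drug raised AHNAK, the ferlin DYSF (by 0.31 with DAC and 0.37 with NTX-301) and the calpain subunit CAPN2 (0.16 and 0.24). NTX-301 lowered PDCD6IP by 0.12 and PDCD6 by 0.09. DAC gave -0.05 for PDCD6IP, a call at an adjusted p of 0.0482 by limma that was lost in all 9 fits that left out a sample (-0.06 to -0.05). Of the 9 in MOLM-13, DAC raised AHNAK, MYOF (0.38) and CAPN1 (0.08), and NTX-301 raised AHNAK, MYOF (0.24) and DYSF (0.09). Both drugs lowered CAPNS1 (by 0.14 with DAC and 0.11 with NTX-301) and PDCD6 (by 0.13 and 0.12) there. Beside these counts, HL-60 had 11.6% of all genes higher with DAC and 18.3% with NTX-301, while MOLM-13 had 15.4% and 20.3%. Beside the falls, the all-gene share called lower with DAC was 12.6% for HL-60, against 21.2% for MOLM-13. For NTX-301 that share was 19.2% (HL-60), against 24.8% (MOLM-13). Leaving out a sample ended the calls of CAPN2 with DAC in 2 of 9 fits (0.13 to 0.17) and PDCD6 with NTX-301 in 3 (-0.11 to -0.06) in HL-60. In MOLM-13 it ended those of CAPN1 with DAC in 5 (0.06 to 0.09) and DYSF with NTX-301 in 3 (0.06 to 0.11).

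**Figure D5:**
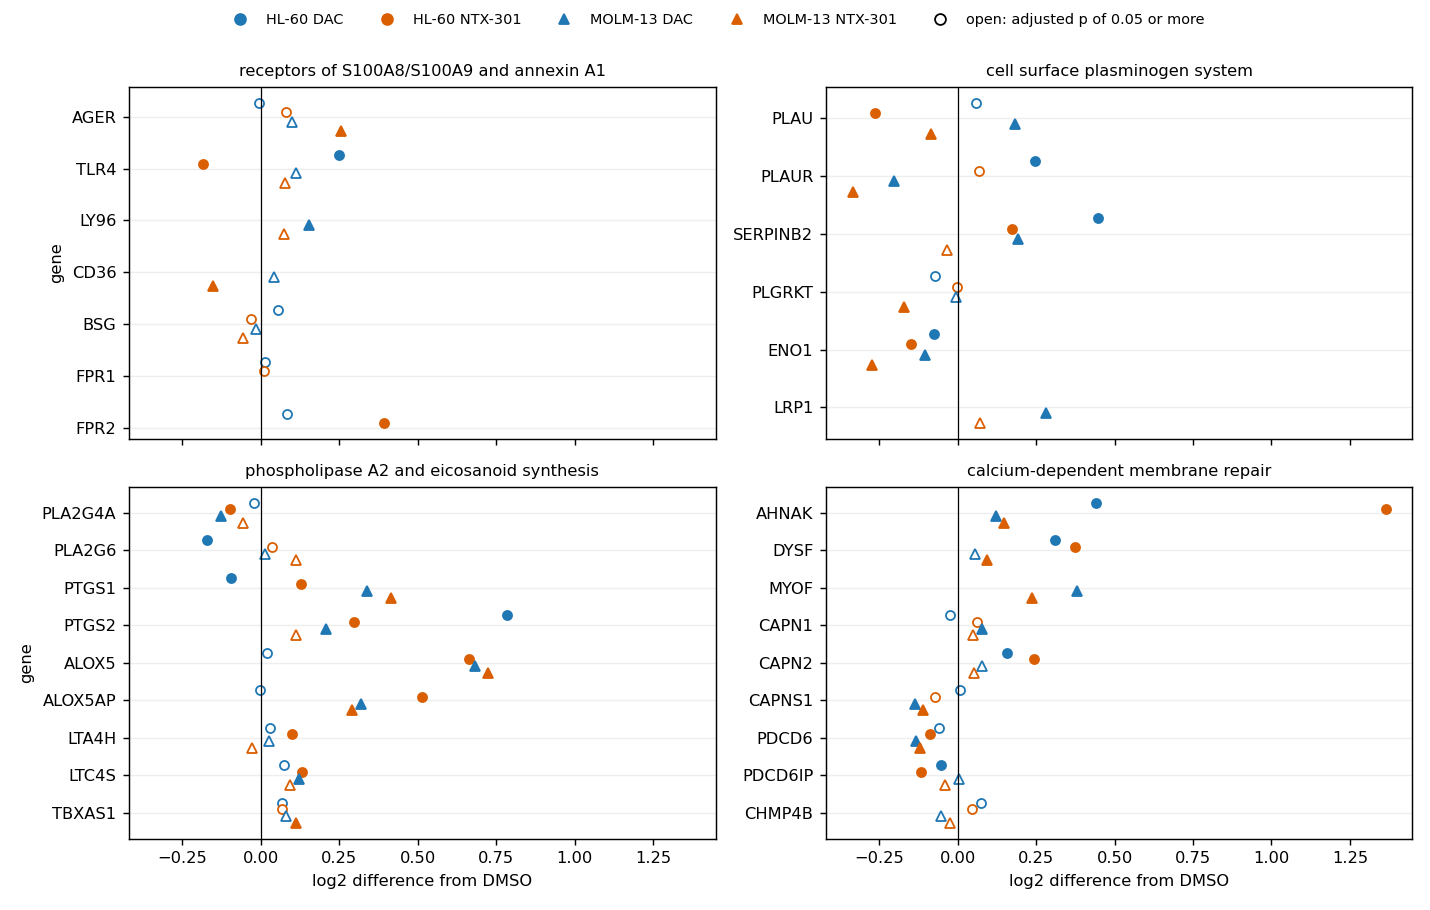
Log2 difference from DMSO for genes of 4 lists around the S100 proteins and annexins, with circles for HL-60, triangles for MOLM-13, blue for DAC, orange for NTX-301 and open symbols for an adjusted p of 0.05 or more. AHNAK at 1.36 with NTX-301 in HL-60 is the farthest point, and PTGS2 at 0.78 with DAC in HL-60 leads the eicosanoid panel.

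Transcription factors tied to myeloid S100 expression were listed in both lines, 6 of 6. In MOLM-13, DAC raised 5 of them (CEBPE by 0.66, KLF4 by 0.39, CEBPB by 0.19, SPI1 by 0.16, CEBPD by 0.14) and NTX-301 raised CEBPE alone (0.30), where 15.4% and 20.3% of all genes were higher. Leaving out a sample ended the DAC call of CEBPD in 6 of 9 fits (0.11 to 0.20), of SPI1 in 4 (0.13 to 0.22) and of KLF4 in 4 (0.29 to 0.51). In HL-60, DAC raised CEBPE by 0.19 and lowered CEBPA by 0.18, where 11.6% of all genes were higher and 12.6% lower. NTX-301 there raised CEBPE by 0.14 and lowered 4 (SPI1 by 0.32, CEBPD by 0.24, CEBPB by 0.19, CEBPA by 0.15), where 19.2% of all genes were lower. The DAC effect was higher in MOLM-13 for all 6, with a median difference of 0.26 beside -0.0044 over all genes tested, of which 12.1% were higher. That call was lost for CEBPD in 5 of 18 fits that left out a sample and for KLF4 in 3. The NTX-301 effect was higher in MOLM-13 for 4 of the 6 and lower for 0, with a median difference of 0.23. Beside this, 17.6% of all genes had a higher NTX-301 effect there. KLF4 had group means of 5.23 to 5.26 in HL-60, where values are compressed. Granule markers also moved: all 5 fell with NTX-301 in HL-60, PRTN3 by 0.76, ELANE by 0.48, MPO by 0.35, AZU1 by 0.25 and CTSG by 0.21. Their summed linear level was 402528 to 412026 there against 523312 to 556375 in DMSO and 520915 to 522125 with DAC. DAC in HL-60 raised 2 of the 5 granule markers and lowered 1. In MOLM-13, DAC raised 3 and lowered 0, with MPO up by 0.72, where 15.4% of all genes were higher and 21.2% lower. NTX-301 in MOLM-13 raised 2 and lowered 1, where 20.3% of all genes were higher and 24.8% lower. The part of the transcription factors and markers in the member results was not tested.

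Among members, S100A11 and ANXA1 had the most similar profiles, with Pearson r = 0.916 over the 18 samples after subtracting the line's DMSO mean. S100A8 with S100A9 gave 0.819 and S100A6 with ANXA1 gave 0.815. At the other end, S100A4 with ANXA5 gave -0.57. The points share groups and controls, so these are descriptions with no test. Of 2135 genes that moved by at least 0.3 in a drug group, S100A6 was most like VIM (0.982) and NDRG1 (0.970), and ANXA1 most like ADGRE4P (0.978), PDE4B (0.963) and ST3GAL2 (0.940). VIM, which encodes the intermediate filament vimentin, gave differences from DMSO of 0.63 (DAC) and 0.80 (NTX-301) in HL-60, and of 0.35 (DAC) and 0.27 (NTX-301) in MOLM-13. S100A11 was most like RIN3 (0.974), INAVA (0.959) and LRP10 (0.954). S100A8 was most like TREM1 (0.947), FAM124A (0.946) and PHLDA1 (0.942), and S100A9 most like RBM47 (0.947), SAT1 (0.946) and IFI30 (0.937). TREM1, a receptor of activated neutrophils and monocytes, gave 0.63 with DAC and 0.34 with NTX-301 in MOLM-13. S100A4 was most like SIGIRR (0.931), NLRC3 (0.906) and ID2 (0.883), which like it lay lower with DAC than with DMSO in HL-60 and higher with NTX-301. The nearest genes of ANXA4 were TRIQK (0.882), TIGAR (0.881) and TOB1 (0.873). ANXA5 was nearest to LOC107984606 (0.917), SERPINB2 (0.869) and HNMT (0.855), and S100A10 to LOC107985193 (0.944), LOC107985595 (0.939) and LINC01814 (0.934).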

How the data were processed

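Total RNA of the 18 samples was sequenced from stranded total RNA libraries, per the labels' protocols. The authors deposited 1 file per sample with a normalized log2 value per gene. The submitters' processing notes name FastQC, Trimmomatic 0.38, HISAT2 and StringTie and the build hg19, without their roles. The normalization method and the use of strand in counting are not given in the sources used here. Depth is unknown: linear values sum to 59846396 to 73564803 per sample, which is the normalized scale. Precision therefore rests on the spread between replicates, and no interval from read counts is given. Each SE and interval of a difference uses a spread pooled over the groups of the fit and moderated by eBayes.

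The members and gene lists were chosen with earlier results of these data known. Tests covered genes that reached a linear value of 1 in 3 or more samples: 17046 in HL-60, 17475 in MOLM-13 and 15474 in both. Each line's 9 samples entered 1 limma 3.58.1 fit (R 4.3.3, group means, eBayes with a variance trend, two-sided), and line differences came from a fit of all 18. Benjamini-Hochberg adjustment ran over every gene tested, and a call needs an adjusted p under 0.05. The limma fit of DAC against DMSO within each line was run on simulated data, with changes added to the DAC group alone. Its outcome is not given here, and the line differences were not part of it. Named genes were all 10 members, per list and drug contrast the 2 with the lowest adjusted p, genes of counts of 5 or fewer, and the 3 with the highest r per member. A gene of the plasminogen list, left out of its counts, and a gene most like S100A6 are not reported here. Genes named beyond that rule, such as the second value of a named gene, were chosen after their values were seen. Levels per kb used the median length of GENCODE v29 transcripts paired with a RefSeq transcript. They take the deposited values as not already scaled to length, which the sources used here do not settle. Alternatives were quantile normalization, median centring, no trend, other filters, pseudocounts of 1 and 10, the replicate block, fits of only the groups compared and leaving out each sample.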

Additional observations from a re-analysis of the deposited data

Results flagged for a closer look

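For 13 member results the effect of a drug differed between the lines in the interaction test of limma at an adjusted p under 0.05, given here as the MOLM-13 log2 effect less the HL-60 one. Stated dose and line cannot be told apart for any of them. For each drug, 9 members were tested. Of all genes tested, 12.1% had a higher effect in MOLM-13 and 17.9% a lower one with DAC, and 17.6% and 22.4% with NTX-301. With DAC the differences were 0.72 for S100A9, 0.48 for S100A8, 0.32 for S100A4, 0.21 for ANXA4, 0.17 for S100A11, -0.23 for S100A6 and -0.13 for ANXA5. With NTX-301 they were 0.27 for ANXA4, 0.20 for S100A10, -0.48 for S100A6, -0.20 for S100A4, -0.14 for ANXA1 and -0.10 for ANXA5. S100A10 lies at a compressed log2 level near 5 in HL-60. S100A4 had a higher effect in MOLM-13 with DAC and a lower one with NTX-301. The calls of S100A11 with DAC and ANXA5 with NTX-301 were lost in most fits that left out a sample. Those of ANXA4 and ANXA5 with DAC and of ANXA1 with NTX-301 were lost in some.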

How the results depend on the processing

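Read depth is unknown, and low genes are compressed, so the size of the S100A10 change in HL-60 is limited. Under settings other than leaving out a sample, 615 member values kept their direction and call, 22 lost and 10 gained a call, and 10 changed sign. All sign changes were of values without a call. Under quantile normalization S100A8 in HL-60 gave -0.0101 (DAC), -0.0163 (NTX-301) and -0.0062 (NTX-301 minus DAC), and ANXA5 with NTX-301 in MOLM-13 gave 0.0081. Under median centring, HL-60 gave -0.0079 for ANXA5 with NTX-301, and -0.017 for S100A8 and -0.0095 for ANXA1 in NTX-301 minus DAC. Centring took DAC in MOLM-13 to -0.0231 for S100A4, -0.0309 for ANXA2 and -0.0172 for ANXA5.

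Members lowered by NTX-301 in HL-60 numbered 0 without the trend or with a pseudocount of 10. NTX-301 in MOLM-13 lowered 0 under quantile normalization, 2 under centring and 2 in the fit of only the groups compared. For NTX-301 minus DAC, quantile normalization left 2 higher in HL-60 and gave 1 higher in MOLM-13, and centring gave 2 lower in HL-60. The DAC effect was higher in MOLM-13 for 3 members under centring and lower for 0 under quantile normalization. Unless stated, the cause was not tested. Over all genes, centring changed the higher and lower calls to 2310 and 5400 (NTX-301, HL-60), 1818 and 4860 (NTX-301 minus DAC, HL-60), 1960 and 5731 (DAC, MOLM-13), 2735 and 5760 (NTX-301, MOLM-13), and 1359 and 4382 (DAC line difference).

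Leaving out 1 sample kept 761 member values in direction and call, 57 lost and 9 gained a call, and 10 changed sign. Ranges that crossed 0 were, in HL-60, -0.1021 to 0.0031 (ANXA4, DAC) and, for NTX-301 minus DAC, -0.0211 to 0.0325 (S100A8) and -0.0027 to 0.0381 (ANXA1). In MOLM-13 they were, for DAC, -0.007 to 0.0247 (S100A4), -0.0173 to 0.0252 (ANXA2) and -0.0112 to 0.0515 (ANXA5), and for NTX-301 minus DAC -0.0688 to 0.0118 (S100A6). Members called lower ranged from 0 to 1 (NTX-301, HL-60), 1 to 2 (NTX-301 minus DAC, HL-60), 1 to 2 (NTX-301, MOLM-13), 1 to 2 (DAC line difference) and 2 to 4 (NTX-301 line difference), and members called higher from 3 to 5 (DAC line difference). Without MOLM-13 DMSO replicate 1, 8 of 10 members kept their place in the order per kb.

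Replicate numbers were not taken to pair the samples, a step that required every same-numbered correlation of deviations to be over 0.1. These correlations were -0.057 to 0.118 in HL-60 and -0.16 to 0.11 in MOLM-13. In 4 of 9 and 1 of 9 same-numbered pairs of samples from different groups, the own number gave the best match. A weak pairing would also fail this rule and is not excluded. With the replicate block, the line differences of S100A11 with DAC (0.17) and ANXA5 with NTX-301 (-0.10) lost their calls, and no other member call changed. All genes called for NTX-301 minus DAC in MOLM-13 fell from 526 higher and 771 lower to 330 and 487 with the block, and to 179 and 283 without NTX-301 replicate 3.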
